A study of Mus musculus with 21 samples.

Results

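H2Bub1 domains of mouse embryonic stem (ES) cells that overexpress Fbxl19 at a high level (OE-high) were compared, position by position, with the H2Bub1 domains of ES cells without that transgene. Members were the 7216 domains of the OE-high list and the 2937 domains of the ES list, 10153 of the 42669 regions in the 8 lists of the series. They stand for 6 of its 21 samples, 3 OE-high and 3 ES, all pulled down with the same H2Bub1 antibody after formaldehyde cross-linking. Both groups were J1 cells, a mouse ES line, grown in serum with leukemia inhibitory factor, which keeps them pluripotent. OE-high is 1 clone in which tagged Fbxl19 is expressed more than 5-fold above the endogenous level, so the clone and the overexpression cannot be told apart. The sources used here do not name the promoter of the transgene, and Fbxl19 levels were not analysed here. By its title, the series asks what Fbxl19 does to the placement of Rnf20 at CpG islands and to H2B monoubiquitination. Fbxl19 peaks of the same clone, pulled down through the tag with streptavidin beads, and Rnf20 peaks of 1 ES sample that contains the biotin ligase BirA were set against the domains. So were Fbxl19 peaks of a clone with lower expression (OE-low, 2 samples). The H2Bub1 list of J1 cells differentiated for 4 days (2 samples) was used likewise. So was that of undifferentiated J1 cells with Fbxl19 knocked down (2 samples).

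H2Bub1 is histone H2B that carries a single ubiquitin. The E3 ligase Rnf20, working with its partner Rnf40, attaches it, mostly along the bodies of genes that are being transcribed, so the mark usually forms long stretches that begin near a transcription start. Fbxl19 is an F-box protein whose CXXC zinc finger binds unmethylated CpG, the state of most CpG islands, and many gene starts lie in such islands.

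Each list is combined over the replicates of its group, and lists of single replicates were not used here. No spread between replicates can therefore be set against any difference, no p-value was computed, and depth per sample is unknown. The track lines carry the numbers 60M for ES and 46M for OE-high, without saying what they count. Intervals are exact Clopper-Pearson 95% intervals and cover counting error in the number of domains only. The third OE-high sample names no list in its description, and it is unknown whether the combined list includes it. Positions are on mm9, counted from 1, and no mm9 annotation was used here, so regions are given without genes, exons or sequence.

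Most OE-high domains stood where no ES domain was listed, and some joined several ES domains. Of those paired one-to-one with an ES domain, 52.5% were longer at 1 end with the other held within 1000 bp. That share varied with the settings. An OE-high domain was called new if it shared no base with an ES domain. This held for 4706 of 7216 domains (65.2%). A further 2271 met 1 ES domain, and 239 (3.31%) met at least 2. In the other direction, 309 of 2937 ES domains (10.5%) met no OE-high domain. Both shares changed when the OE-high list was cut to its 2937 domains of highest score: 1334 (45.4%) were new and 1210 ES domains (41.2%) were not met. The cut changes list length and score together, and their parts were not separated. Few domains lay at the edge of the 1-bp rule. Only 81 of the 2821 overlaps were of 1000 bp or less, the smallest being 200 bp, and only 4 new domains lay within 1000 bp of an ES domain.

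By sequence, the OE-high list covered 246 Mb and the ES list 57.4 Mb. Sequence in both lists came to 47.2 Mb, 19.2% of the OE-high total. New domains held 148 Mb (60.1%), gaps between joined ES domains 4.37 Mb (1.78%), the added ends of one-sided pairs 25.1 Mb (10.2%), and other extensions of ES domains 21.4 Mb (8.71%). New domains thus made up the larger share of both the number and the sequence, as the plot of domains by ES domains met and of sequence by origin shows.

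**Figure D1:**
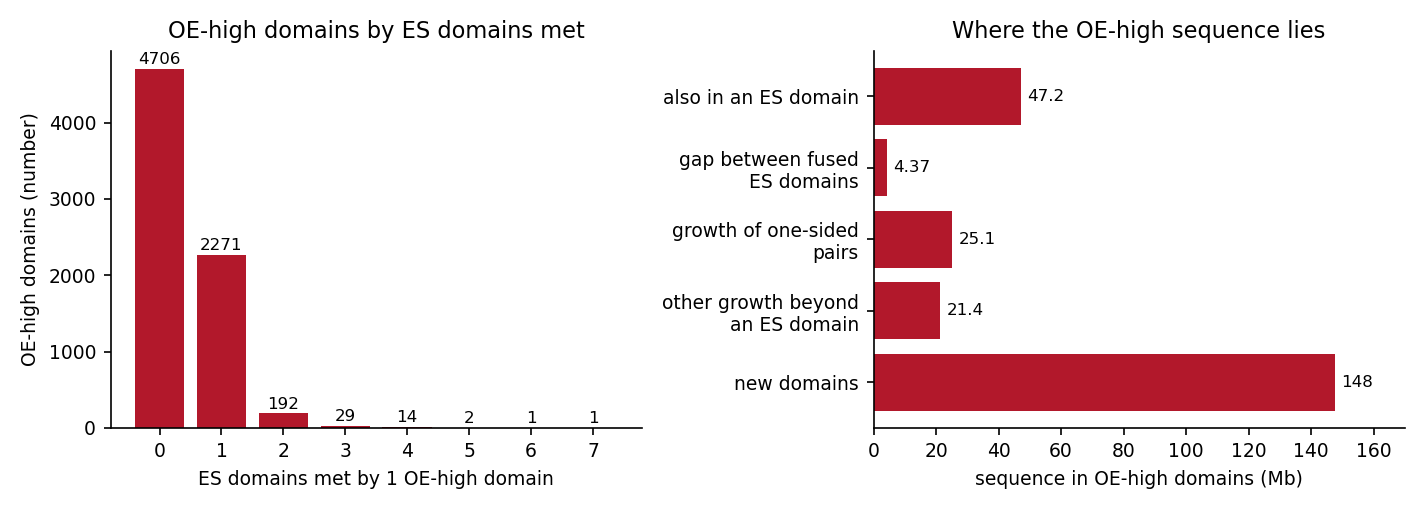
Left, number of OE-high H2Bub1 domains (y axis) by the number of ES domains each met (x axis). Right, megabases of OE-high sequence (x axis) by where it lay relative to the ES list. New domains, at 0 on the left x axis, numbered 4706 and held 148 Mb, and 239 domains met 2 to 7 ES domains.

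Fbxl19 and Rnf20 peaks were unevenly spread over these kinds of sequence. Fbxl19 summits of the same OE-high clone stood at 40.2 per Mb in sequence common to both H2Bub1 lists, 22.0 per Mb in new domains, 11.2 per Mb in bridged gaps and 8.47 per Mb in the added ends of one-sided pairs. The density was highest, 57.0 per Mb, in the 10.2 Mb of ES sequence that OE-high domains left uncovered, and 3.15 per Mb outside both lists. Of the uncovered ES sequence, 2.26 Mb was in ES domains not met by OE-high, and the rest was parts of ES domains that were met. The 2 were not separated here. Of the ES domains not met, 20.4% held an OE-high Fbxl19 peak, against 69.1% of those met, which were longer. Rnf20 peaks stood at 36.1 per Mb in common sequence, 10.2 in new domains, 7.78 in bridged gaps, 5.21 in the one-sided extensions, 39.6 in the uncovered ES sequence and 1.96 outside. In the other extensions of ES domains Fbxl19 stood at 16.3 per Mb and Rnf20 at 7.75 per Mb. The stretches added to existing domains thus had fewer peaks of both proteins per megabase than sequence common to both lists or the new domains. They had more than sequence outside both lists. The ES domains that were extended were not counted apart.

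New domains were shorter and scored lower than OE-high domains that met the ES list. Their median length was 18800 bp, against 25200 bp for domains that met 1 ES domain and 53600 bp for those that met several. The authors' domain score, which ranks domains within a list, was above 7 everywhere and had a median of 10.4 in new domains and 14.9 in fused ones. Divided into 4 classes by score, the OE-high list had 85.7% new domains in the lowest class, then 76% and 61.6%, and 37.6% in the highest. A high-scoring OE-high domain was more often one that the ES list already held.

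Among new domains of at least 5 kb the highest score, 47.2, belonged to chr10:79167200-79174999. It had an OE-high Fbxl19 summit at both ends, at 79167276 (76 bp from the left end) and 79175396 (396 bp from the right end, with an Rnf20 midpoint 539 bp from it), and lay 11000 bp from the nearest ES domain. Next came chr17:3076200-3084799 (score 41.9), 30200 bp from an ES domain, and chr12:110013400-110080199 (score 41.6), 698600 bp from one, with 3 OE-high Fbxl19 and 2 Rnf20 peaks. The longest were chr12:100428400-100801999 (373600 bp), chr3:88552600-88905799 (353200 bp) and chr4:149655800-149985999 (330200 bp). The last of these began 61 bp from an Fbxl19 summit. A domain of median length was chr11:54827200-54845999, 18800 bp long and 49600 bp from the nearest ES domain, with an Fbxl19 summit 705 bp beyond its right end. All 7 were also met by a domain of cells differentiated for 4 days, whereas 2 of the 7, those on chromosomes 17 and 11, were met in the Fbxl19 knockdown.

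That difference held across the list. Of the 4706 new domains, 2708 (57.5%, interval 56.1 to 59.0) met a domain of differentiated cells and 236 (5.01%, interval 4.41 to 5.68) a domain of knockdown ES cells. For one-to-one pairs, those in which 1 OE-high and 1 ES domain met each other and nothing else, the shares were 81.7% and 55.1%. Fused domains had 88.7% and 69.5%. The differentiated list is longer than the knockdown list (5125 against 1813 domains), which bears on each of these shares. New domains lie off the ES list by rule. Of domains that met no ES domain, the differentiated list had 3006 and the knockdown list 326. The contrast for new domains is thus in part set by that rule and is not a trait shown for them alone. The score moved with the share in differentiated cells: it was 26.4% in the lowest of 4 score classes of new domains, then 43% and 71.6%, and 89.1% in the highest. The share with an OE-high Fbxl19 peak went from 48.8% to 72.2% and that with an Rnf20 peak from 17.8% to 31.5% over the same classes. Median length went from 13400 to 23200 bp alongside, and its part in these shares was not tested.

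Most new domains were not close neighbours of ES domains, yet more of them than of ES-free sequence lay within 100 kb. The gap to the nearest ES domain had a median of 187 kb and quartiles of 65.5 and 516 kb. Only 50 (1.06%) lay within 5 kb, 329 (6.99%, interval 6.28 to 7.76) within 20 kb, 1626 (34.6%) within 100 kb and 3503 (74.4%) within 500 kb. For reading these shares, the same distances were computed for every base outside ES domains. Of that sequence 1.08% lay within 5 kb, 4.06% within 20 kb, 16.6% within 100 kb and 50.9% within 500 kb. Most new domains thus lay over 100 kb from any ES domain, while the share within 20 kb, 100 kb and 500 kb was above that of ES-free sequence.

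The nearest distances depended on where a domain was measured. By its midpoint, 3.97% of new domains were within 20 kb, close to the 4.06% of ES-free sequence, while 30.1% were within 100 kb and 73.5% within 500 kb. A long domain reaches closer with its edge than with its middle. Per megabase of ES-free sequence at each distance, there were 1.84 new domains at under 5 kb, 3.71 at 5 to 20 kb, 4.12 at 20 to 100 kb, 2.17 at 100 to 500 kb and 0.973 beyond 500 kb. By this edge distance new domains were densest at 20 to 100 kb and sparser beyond. The value at 5 to 20 kb rests on edges: by midpoint 187 new domains in all lay within 20 kb, against 329 by edge, and 1415 within 100 kb, against 1626.

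Sequence next to ES domains was covered by OE-high domains too, but by those that extended an ES domain. Of ES-free sequence within 1 kb of an ES domain, 49.7% lay in an OE-high domain and 0.0387% in a new one. At 5 to 20 kb the shares were 25.3% and 2.62%, at 20 to 50 kb 17.9% and 7.02%, and at 50 to 100 kb 14.2% and 10.7%. Beyond 500 kb all of the 3.67% covered was in new domains. New domains made up the larger part of the cover from 50 kb outward, and extended ES domains made up the larger part nearer than that.

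**Figure D2:**
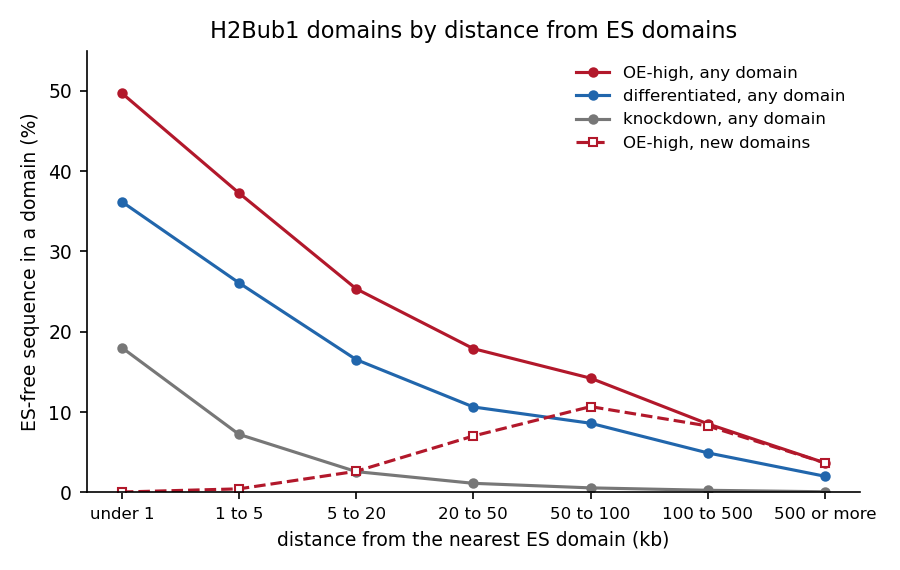
Share of sequence outside ES domains that lay in an H2Bub1 domain (y axis, %) by distance from the nearest ES domain (x axis, kb, 7 classes). Solid lines count any domain of the OE-high, differentiated and knockdown lists, and the dashed line counts new OE-high domains; cover by any OE-high domain was 49.7% within 1 kb and 3.67% beyond 500 kb, while new domains covered most, 10.7%, at 50 to 100 kb.

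The differentiated and knockdown comparisons use the same ES list as control, so their values stand beside these as no independent check. Differentiated cells covered 36.2% of the sequence within 1 kb of an ES domain, 16.5% at 5 to 20 kb and 2.00% beyond 500 kb. Knockdown cells covered 18%, 2.58% and 0.0677%. The gap of new domains had a median of 184 kb in differentiated and 124 kb in knockdown cells.

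The distance classes of new domains differed in length and in the peaks they held. Median length was 9300 bp in the 50 domains nearest to the ES list (under 5 kb), 11200 bp at 5 to 20 kb, 17200 bp at 20 to 100 kb, 20000 bp at 100 to 500 kb and 21000 bp beyond. The share with an OE-high Fbxl19 peak was 36%, 57.7%, 63.5%, 65.4% and 57.4% in the same order. The share with an Rnf20 peak was 8%, 22.9%, 24.1%, 24.9% and 26.1%. The Fbxl19 share was thus highest between 20 and 500 kb and lower beyond 500 kb (interval 54.5 to 60.2) than at 20 to 100 kb (interval 60.8 to 66.2). The closest domains were the shortest and had the smallest shares with a peak of either protein.

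Both sides of ES domains were represented alike, the nearest ES domain lying to the left of a new domain in 50.3% of cases (interval 48.8 to 51.7). For the 329 new domains within 20 kb, that nearest ES domain was itself met by an OE-high domain in 314 cases (95.4%), against 89.5% of all ES domains. The nearest OE-high neighbour lay a median of 28100 bp from a new domain and 36000 bp from an OE-high domain that met the ES list. The farthest new domains from the ES list were 2 on the X chromosome, chrX:160506400-160514199 at 5898600 bp and chrX:160857800-160874199 at 5538600 bp, neither with an Fbxl19 or Rnf20 peak. The next was chr8:3393000-3433999 at 5225600 bp, with an Fbxl19 summit 5 bp from its left end.

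Fusion was a matter of short gaps. The 239 fused OE-high domains joined 550 ES domains: 192 joined 2, 29 joined 3, 14 joined 4, 2 joined 5, 1 joined 6 and 1 joined 7. They bridged 311 of the 2917 gaps between neighbouring ES domains on a chromosome (10.7%). By gap size the bridged share was 87.2% under 1 kb (68 of 78), 80.1% at 1 to 5 kb (133 of 166), 34.2% at 5 to 20 kb, 13.9% at 20 to 50 kb, 8.15% at 50 to 100 kb and 0.296% above (6 of 2026). Bridged gaps had a median of 2400 bp and reached 269800 bp, while gaps that were not bridged had a median of 371500 bp.

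**Figure D3:**
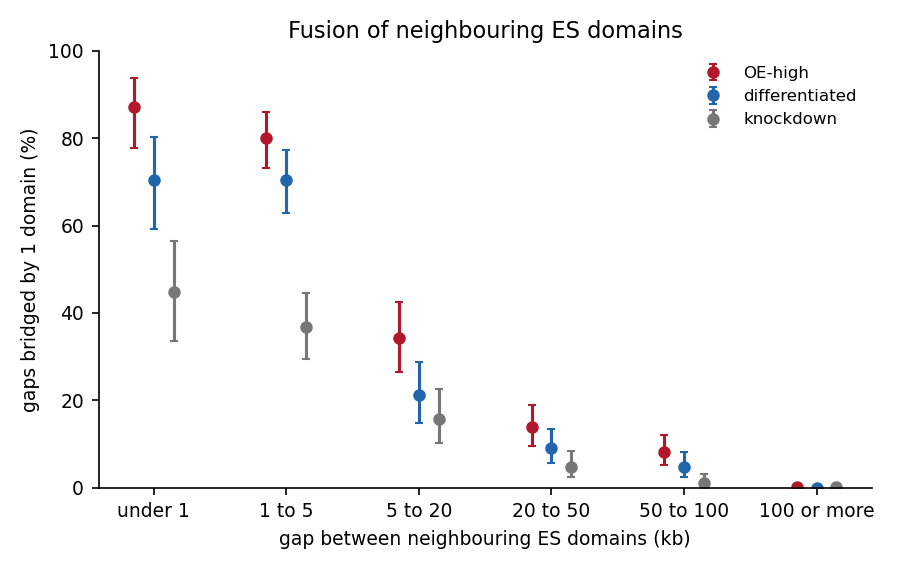
Share of gaps between neighbouring ES domains that lay within 1 domain of another list (y axis, %) by gap size (x axis, kb). Points are shares in the OE-high, differentiated and knockdown lists and bars are exact Clopper-Pearson 95% intervals; in OE-high the share went from 87.2% of gaps under 1 kb to 0.296% of gaps of 100 kb or more.

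The other 2 lists that share the ES control bridged fewer of these gaps in all 6 size classes, although the intervals of the differentiated list overlap those of OE-high in each class. Under 1 kb the share was 70.5% in differentiated and 44.9% in knockdown cells, and at 5 to 20 kb it was 21.2% and 15.8%. Over all gaps it was 8.12% and 4.66%. A part of the joining at short gaps was therefore present in each list set against ES, the knockdown included.

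New domains within unbridged gaps were found in the longer gaps. No new domain lay in any of the 139 unbridged gaps under 20 kb. One or more lay in 18 of 199 at 20 to 50 kb, 49 of 248 at 50 to 100 kb and 1373 of 2020 above 100 kb. Of these last, 892 held at least 2 and the fullest held 57. New domains had a median length of 18800 bp, so many would not fit in a short gap without meeting an ES domain. Size thus limits these counts, and the number that the space allows was not computed. At 5 to 20 kb an OE-high Fbxl19 summit lay in 7 of 50 bridged gaps (14%, interval 5.82 to 26.7) and 28.1% of unbridged gaps (interval 19.4 to 38.2). At 20 to 50 kb these were 7 of 32 (21.9%, interval 9.28 to 40) and 36.7% (interval 30 to 43.8). At 50 to 100 kb they were 7 of 22 (31.8%, interval 13.9 to 54.9) and 58.1% (interval 51.7 to 64.3). The bridged shares were lower in these classes, but the intervals overlapped in each of them. Above 100 kb the shares were 2 of 6 (33.3%, interval 4.33 to 77.7) and 84.8% (interval 83.1 to 86.3), without overlap. At 1 to 5 kb they were 4 of 133 and 3 of 33, with overlapping intervals. Under 1 kb the order was the reverse, 1 of 68 and 0 of 10. Gap length within a class was not matched.

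Fused domains were long and carried Fbxl19 often. Their length had a median of 53600 bp and reached 325000 bp, and ES domains covered a median of 42.1% of it. Of fused domains 84.9% held an OE-high Fbxl19 peak (interval 79.8 to 89.2) and 48.1% an Rnf20 peak, against 77.1% and 44.5% of one-to-one OE-high domains. One-to-one domains were shorter, with a median of 25600 bp, and the shares were not matched for length. Beyond the joined ES domains, 114 fused domains (47.7%) were longer at 1 outer end with the other held. A further 52 (21.8%) were longer at both, and 28 (11.7%) held both. Chromosomes 11 and 1 had 58 and 46 fused domains, the most of any, and also 407 and 349 ES domains.

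The domain that joined the most ES domains was chr1:162836600-162905999, 69400 bp with 7 ES domains of 800 to 31800 bp in it. Its only OE-high Fbxl19 peak had its summit at 162836659, 59 bp from the left end, which the first ES domain shared to within the 1-kb tolerance. On chromosome 11, chr11:112918800-113063199 (144400 bp) joined 6 ES domains that all lay in its right part, and ended at the same base as the last of them, 65 bp from an Fbxl19 summit. That region met no domain of the knockdown or differentiated lists. Next, chr11:72418000-72554399 (136400 bp), joined 5 and held 3 Fbxl19 peaks and 1 Rnf20 peak. The 3 fused domains with the highest scores each joined 2 ES domains and had 1 Fbxl19 summit at the right end: chr11:115358200-115375599 (score 40.8, summit 65 bp from the end), chr4:138659200-138686999 (score 36.7, 46 bp) and chr1:9726600-9738399 (score 34.4, 156 bp). Chr11:54336400-54389999 had the median length, 53600 bp, joined 2 ES domains and held no Fbxl19 peak.

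The reverse of fusion was seen too. Of the ES domains, 158 (5.38%) met 2 or more OE-high domains. These were long, with a median of 81800 bp, and the 193 breaks inside them had a median of 10000 bp.

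Growth at 1 end was the most frequent state of one-to-one pairs. In the 1939 pairs an end was called held if the OE-high end lay within 1000 bp of the ES end, and otherwise out or in. In 1018 pairs (52.5%, interval 50.3 to 54.7) 1 end was out and the other held. Both ends were out in 343 (17.7%, interval 16 to 19.5), both were held in 317 (16.3%), and 131 (6.76%) were shorter at 1 end with the other held. A further 101 (5.21%) had 1 end out and the other in, and 29 (1.5%) were shorter at both ends. Growth to the left (529 pairs) and to the right (489) was about equally frequent, with 52% to the left (interval 48.8 to 55.1).

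**Figure D4:**
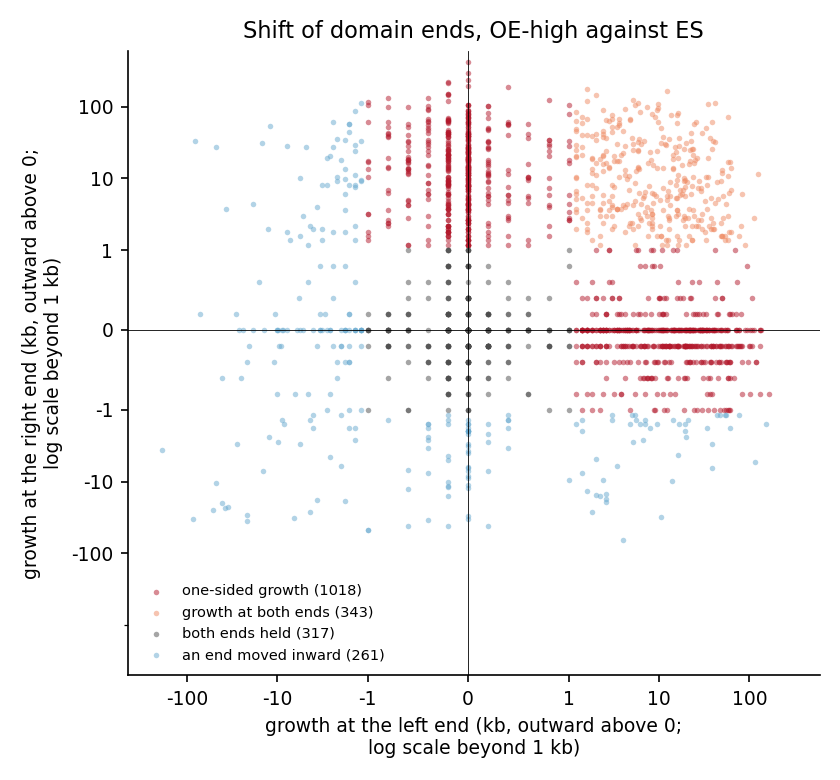
Shift of the left (x axis) and right (y axis) end of the OE-high domain against its ES partner, in kb, outward above 0, linear within 1 kb and logarithmic beyond; each point is 1 of 1939 one-to-one pairs. The 1018 pairs with one-sided growth lie on the 2 arms along the axes, and 343 pairs with growth at both ends fill the upper right.

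The added stretch was often longer than the ES domain itself. Its median was 12800 bp (quartiles 4400 and 31000 bp) to the left and 13000 bp (4400 and 32800 bp) to the right. One-sided pairs had a median ES length of 7000 bp and a median OE-high length of 26800 bp, with a median ratio of 2.62 (quartiles 1.5 and 6.07). Growth was over 20 kb in 377 pairs and over 50 kb in 141. The other end was held closely: in 400 of the 1018 pairs (39.3%) it lay at the very same position of the 200-bp grid, and in 706 (69.4%) within 200 bp. In pairs with growth at both ends, the smaller growth had a median of 3400 bp and the larger 21000 bp. Sorting the ends of each pair by size makes these medians differ, so they are no measure of uneven growth.

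One-sided growth was most common in ES domains of 1 to 5 kb (65%) and less so at 5 to 20 kb (53.4%), 20 to 50 kb (43.4%) and above (30.1%). Under 1 kb it was seen in 7 of 35 pairs (20%), and 71.4% of those pairs held both ends. In the lists that share the ES control, one-sided growth made up 48% of 1665 pairs in differentiated cells (interval 45.6 to 50.5) and 24.4% of 1215 in knockdown cells (interval 22.1 to 27.0), where one-sided shortening made up 24.1%. Median growth was 11200 bp and 3200 bp there. In OE-high growth outnumbered shortening, whereas in the knockdown they were about equal.

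The largest one-sided growth was at chr14:12386000-12814399. An ES domain of 5200 bp, ending at 12391199, was met by an OE-high domain of 428400 bp, the longest of the list, with the left end at the same base and 423200 bp added to the right. Its only OE-high Fbxl19 peak had its summit 3077 bp from that left end. Next to the right came chr2:5300000-5597199 (296600 bp added to an ES domain of 600 bp whose score was 46.3) and chr9:47338400-47574599 (233200 bp added). To the left the largest were chr14:87347600-87540999 (165400 bp added, Fbxl19 summit at 87541056, 56 bp from the right end), chr13:29809400-29947599 (134800 bp, no Fbxl19 or Rnf20 peak) and chr13:55310000-55463999 (132200 bp, 5 peaks of each protein). These reach far beyond the usual case. Typical growth was that of chr4:125840800-125879999, where the ES domain began at 125853000, 12200 bp were added to the left, and the common right end lay 139 bp from an Fbxl19 summit. Its counterpart to the right, chr1:15795600-15844999, added 13000 bp to an ES domain that ended at 15831999 and held no Fbxl19 peak.

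Pairs with the highest scores added less. To the right, chr11:75546400-75582199 (score 52.9) added 4600 bp, with an Fbxl19 summit 141 bp and an Rnf20 midpoint 93 bp from its held left end, chr9:120841400-120877399 (score 46.1) added 10200 bp, and chr13:66690000-66697599 (score 39.4) added 1800 bp. To the left, chr4:118777800-118810599 (score 49.9) added 3600 bp, chr1:153314600-153347999 (score 46.3) added 11600 bp, and chr13:48628600-48641999 (score 44.1) added 3400 bp. The pair on chromosome 4 had Fbxl19 summits by both ES ends. One lay at 118781174 near the moved left end (118781400), the other at 118811027 near the held right end (118810199).

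In pairs with one-sided growth, Fbxl19 summits lay more often at the end that was held than at the end that moved. An OE-high Fbxl19 summit was within 1 kb of the held ES end in 647 of the 1018 one-sided pairs (63.6%, interval 60.5 to 66.5) and of the moved ES end in 74 (7.27%, interval 5.75 to 9.04). In 621 pairs it was at the held end only, in 48 at the moved end only, in 26 at both and in 323 at neither. The values were alike for growth to the left (64.1% and 7.18%) and to the right (63% and 7.36%), and in ES domains over 2 kb (63.3% and 6.98%). The new outer end of the OE-high domain had a summit in 5.5% of pairs, and the added stretch held one in 13.6%. Pairs whose ends were both out or both held were alike in this respect: a summit lay at 28.1% of ends (interval 24.8 to 31.7) where both were out and at 31.4% (interval 27.8 to 35.2) where both were held, and at either end in 54.8% and 56.8% of these pairs. For Fbxl19 these ends thus differed little, unlike the held and moved ends of one-sided pairs. In one-sided pairs the sparser Fbxl19 peaks of the OE-low clone gave 8.55% at the held and 1.96% at the moved end. Rnf20 midpoints showed the same order there, 26.5% at the held end (interval 23.8 to 29.3) and 6.48% at the moved end. Outside one-sided pairs Rnf20 differed as well. A midpoint lay at 28.2% of ends (interval 24.8 to 31.9) where both were held. Where both were out it was 13.4% (interval 11 to 16.2).

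**Figure D5:**
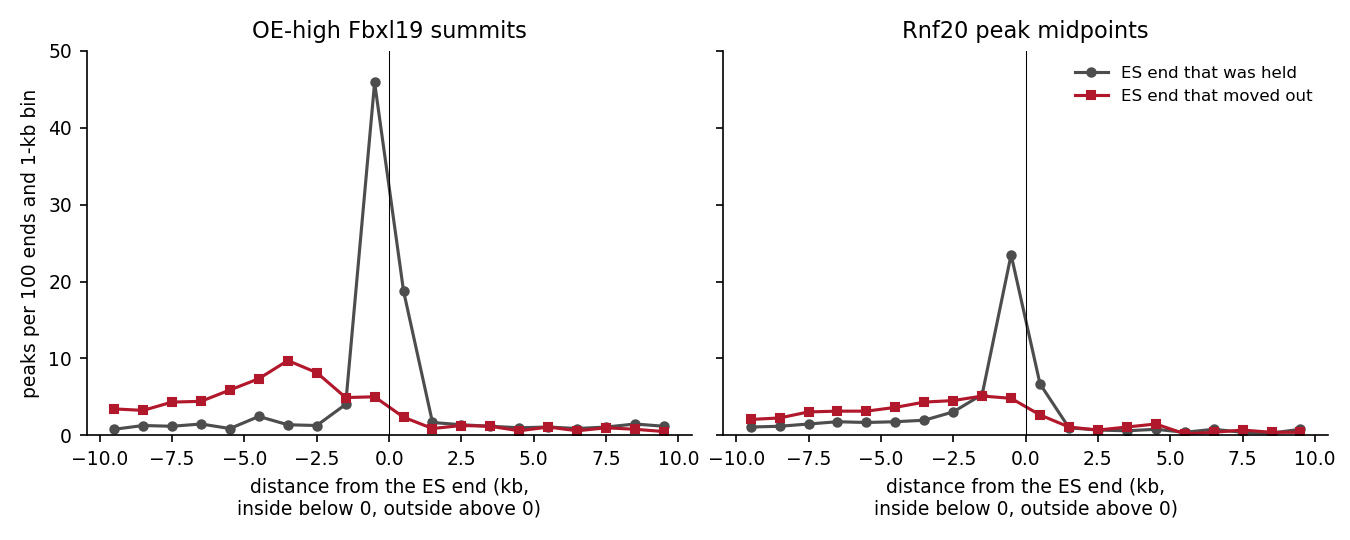
Peaks per 100 ES ends in 1-kb bins (y axis) by distance from the ES end (x axis, kb, inside the domain below 0), for OE-high Fbxl19 summits (left) and Rnf20 midpoints (right), over the 1018 one-sided pairs. At held ends the first kb inside had 45.9 Fbxl19 summits and 23.5 Rnf20 midpoints per 100 ends; at moved ends the corresponding Fbxl19 value was 5.01, and it was 9.72 at 3 to 4 kb inside.

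The plot of peaks around ES ends places the summits more finely. At held ends there were 45.9 Fbxl19 summits per 100 ends in the first kb inside the domain and 18.8 in the first kb outside. At moved ends these were 5.01 and 2.36. Further inside moved ends the value was 9.72 at 3 to 4 kb. The ES domains of these pairs had a median length of 7000 bp, so bins deep inside also take in summits at the other end.

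Read from the peaks, an ES end with Fbxl19 was mostly an end that stayed. Of 1224 ES ends of one-to-one pairs with a summit within 1 kb, 74.7% were held, 24.1% were out and 1.23% were in. Of 2654 ends without one, 32.7% were held, 56.9% were out and 10.4% were in. For Rnf20, 72% of 685 ends with a midpoint were held, against 40.4% of those without. Among 1078 pairs with a summit at exactly 1 end of an ES domain over 2 kb, 589 (54.6%, interval 51.6 to 57.6) grew at the other end only, 48 (4.45%) at the summit's end only, 178 (16.5%) at both, and 160 (14.8%) held both.

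This layout was not limited to OE-high. With the same Fbxl19 peaks and the same ES list, the held end had a summit in 67.8% and the moved end in 6.75% of 800 one-sided pairs of differentiated cells, and in 60.9% and 9.76% of 297 pairs of knockdown cells. Growth away from the only summit was 50.8% of such pairs in differentiated, 24.7% in knockdown and 54.6% in OE-high cells. The size of growth in OE-high had a median of 13800 bp (quartiles 4600 and 30000 bp) in the 647 pairs with a summit at the held end and 11200 bp (4100 and 34500 bp) in the 371 without, so the ranges overlapped and the upper quartiles had the opposite order.

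In new domains the most common layout was a summit at 1 end, though most new domains lacked it. No expected share is given, and in domains little over 2 kb the windows at the ends take in nearly the whole domain. Among the 4525 new domains over 2 kb, 45.1% had an OE-high Fbxl19 summit within 1 kb of 1 end, 1.83% at both ends, 17.9% only further inside and 35.1% none. One-to-one OE-high domains had 51.6%, 3.33%, 24.5% and 20.5%, and fused domains 48.1%, 5.02%, 31.8% and 15.1%. A summit at 1 end only was the most frequent layout in each class, and domains with no summit were most frequent among the new ones.

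The 309 ES domains that met no OE-high domain were short, with a median of 2200 bp and 2.26 Mb in all. By ES length, the share not met was 52.3% under 1 kb (58 of 111), 18.1% at 1 to 5 kb, 4.18% at 5 to 20 kb, 4.63% at 20 to 50 kb and 3.44% above. Their gap to the nearest OE-high domain had a median of 185400 bp, so they were mostly not near misses. Differentiated cells listed 10.7% of them and knockdown cells 23.3%, against 82.4% and 55.6% of the ES domains that OE-high did meet. Unlike the latter, they were thus found more often in the shorter knockdown list than in the differentiated list. Of them 20.4% held an OE-high Fbxl19 peak against 69.1% of ES domains met, and 36.9% an Rnf20 peak against 39%.

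The highest score among them, 273, was that of chr9:2999800-3038399, at the first positions listed on that chromosome and with no Fbxl19 or Rnf20 peak. Another, chr14:2999800-3094599 (94800 bp), began at the same coordinate of its chromosome and was among the 3 longest. What such regions at chromosome starts hold was not tested. By contrast, chr6:47601400-47637199 (score 29.4) held 7 OE-high Fbxl19 and 13 Rnf20 peaks, and chr8:56197000-56209199 (score 27.6) held 6 Rnf20 peaks. The longest were chr5:26326400-26449399 (123000 bp) and chr1:87457400-87556399 (99000 bp), each with 1 Fbxl19 peak. Nearest to the median length was chr11:11832400-11834799, 123400 bp from the nearest OE-high domain.

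Chromosomes differed in how much OE-high added. The ratio of OE-high to ES domains was lowest on chromosome 1 (1.41) and highest on chromosome 8 (4.30) among autosomes, with a median of 2.73. The share of new domains ran from 43.6% on chromosome 1 to 77.6% on chromosome 7. ES domains covered 4.75% of chromosome 1 and 6.09% of chromosome 11, the highest shares in that list, and OE-high domains covered 9.53% and 14.1% of them. One-sided growth varied less, from 44.6% of pairs on chromosome 14 to 64.1% on chromosome 9 with a median of 51.7%. The X chromosome stood apart in ES domains not met, 19 of 41 (46.3%), against 5.23% to 25.7% on autosomes. Chromosome 1 and chromosome 11 had the most ES domains, and without both of them the count of fused domains was 135 in place of 239.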

How the data were processed

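H2Bub1 ChIP-seq was compared between 3 OE-high and 3 ES samples, grouped by title, as 1 combined list per group. Tools listed in the submitters' processing notes are BWA 0.5.9-r16 and MACS, and the build is mm9, each without a role. The authors' track lines end in BCP, per the file headers; the sources used here give neither the caller's settings nor the reads behind the lists. The lists give the authors' deposited domain score, whose formula is not given, and a further deposited column with the domain length in base pairs (unit: other). H2Bub1 and Rnf20 positions were read as counted from 0 and Fbxl19 positions as counted from 1. The deposited summit was used for Fbxl19 and the midpoint for Rnf20. Lists were made separately, so scores are not compared between them.

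Overlap was 1 bp or more, the tolerance at an end 1000 bp, the summit distance 1 kb and the near distance 20 kb. ES-free sequence was every base outside ES domains within the stretch of a chromosome that the lists span together. Named regions were, per class, the 3 of highest score among domains of at least 5 kb, the 3 largest, the 1 nearest the median, and the 3 farthest new domains. Unplaced contigs, the mitochondrial chromosome and chromosome 18 were left out of naming. The members, lists and rules were chosen with earlier results of these data known. Columns of per-sample values not used numbered 0. Alternatives were lists of equal size, the top 50% by score, autosomes only, domains of at least 2 kb, joining of domains under 5 kb apart, a 50% overlap, and other tolerances, distances and peak lists. The code was tested on simulated data, where it recovered 100% of 200 planted domains in each of 6 classes. Python 3.11.15, NumPy 2.4.6, SciPy 1.17.1 and matplotlib 3.10.9 were used.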

Additional observations from a re-analysis of the deposited data

How the results depend on the processing

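Of 48 recomputed values, 22 moved and 26 were counted as not moved, by their counts where a result is a count. Not all of these 26 were close to the values given above. When a domain was new unless ES domains covered 50% of it, 5801 OE-high domains were new (80.4% in place of 65.2%). With domains of at least 2 kb, 175 were fused in place of 239. A tolerance of 200 bp gave 783 pairs with one-sided growth in place of 1018. With the OE-high list cut to the 2937 domains of highest score, 1334 domains were new (45.4%), 1210 ES domains were not met (41.2%), 164 domains were fused (5.58% in place of 3.31%), 635 pairs had one-sided growth, 6.15% of new domains lay within 20 kb, and 66.6% of held ends had an Fbxl19 summit. With the top 50% of each list by score, these were 2567 new (71.1%), 474 one-sided, 3.31% and 70.5%, 42 domains were fused (1.16%), and 429 of 1468 ES domains were not met (29.2% in place of 10.5%). Joining domains under 5 kb apart left 116 fused and 5.44% within 20 kb. This joins both lists, and the 2 were not separated. With domains of at least 2 kb, 179 ES domains were not met. Without chromosomes 1 and 11, an alternative chosen after seeing the data, 135 domains were fused and 5.62% of new domains lay within 20 kb. A distance of 5 kb gave 1.06%, 100 kb gave 34.6%, and the midpoint of the domain, also added later, gave 3.97%. A summit distance of 500 bp gave 52.1% at the held end and 2000 bp gave 66.7%, while OE-low Fbxl19 gave 8.55% and Rnf20 26.5%. Where the construction does not show it, the cause was not tested. The share of one-sided growth stayed between 40.4% (tolerance 200 bp) and 54.0% (without chromosomes 1 and 11), and in each setting the held end had the higher share of summits. One-sided growth was 49.9% of pairs with a tolerance of 5000 bp and 49.7% with lists of equal size. It was thus not a majority in every setting.

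No paired analysis was possible because each group has 1 list combined over its replicates. For the same reason no replicate was left out. Depth per sample is unknown, so a domain missing from a list is not shown to lack H2Bub1.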
